A study of Mus musculus with 4 samples.

Results

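MOV10 peaks lying between 2 and 5 kb upstream of the 3′ end of their gene were examined. The authors' list of reproducible peaks held 12236 peaks, of which 9978 were single-gene peaks, with their midpoint in exactly 1 annotated gene span, of at least 15 kb. Of these, 2749 peaks (27.6%) had their midpoint more than 2000 and up to 5000 nt from the gene's 3′ end, and they marked 536 genes, all protein-coding. The interval from 2000 to 5000 nt is called the 2 to 5 kb zone below. Among the listed peaks the members were taken by position alone. Enrichment entered only through the list itself, which holds no weak peaks. Plus-strand genes held 1343 of the 2749 peaks and minus-strand genes 1406. The direction of each gene came from the strand of its peaks. It matched the strand of the annotated promoter in all 418 of the 536 genes that a RefSeq promoter table (GRCm38.p6) held, and 0 genes had zone peaks on both strands.

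MOV10 is a cytoplasmic helicase of the UPF1-like family that unwinds RNA in the 5′ to 3′ direction and works beside Argonaute proteins. The 3′ untranslated region of an mRNA carries most sites for microRNAs and for many RNA-binding proteins, and neuronal transcripts are known for long ones. A peak several kilobases before the end of a gene can lie in such a long region, in coding exons or in an intron. Which of these held for a given peak was not determined, because exon positions were not used here.

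The libraries came from N2A, a mouse neuroblastoma line labelled as a neurocarcinoma line, with no genotype or treatment other than the pull-down named. The design had 2 MOV10 immunoprecipitates, made with a Bethyl antibody, and 2 inputs, and served to find the RNAs bound by MOV10. In eCLIP, RNA crosslinked to a protein by ultraviolet light is recovered with an antibody, sequenced and compared with an input. Each peak had a single deposited log2 fold enrichment (immunoprecipitate over input) and a single deposited −log10 p for all libraries together, so there was no value per library, no spread between replicates and no test between conditions for any peak. All comparisons below are therefore descriptions of this list, without a test. The list started at a log2 fold enrichment of 3.001, which leaves out weaker binding, and the read depth was unknown. A list of peaks gives no expression level with which to check the cell type. Of 12 markers of the sympathetic neuroblastoma lineage, 3 had a listed peak (Gata2, Ret and Stmn2) and 0 had one in the zone, and of 15 markers of fibroblasts, glia, endothelium and leukocytes 0 had any.

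Peaks thinned out steadily through the zone while their strength did not change in step. From 2000 to 2500 nt before the gene end there were 860 peaks in 379 genes. The next 500 nt held 611 peaks in 272 genes, and the following steps held 482, 329 and 276 peaks. The last step, from 4500 to 5000 nt, held 191 peaks in 88 genes. The number of peaks per occupied gene stayed between 2.17 and 2.27 in these 6 steps, so the decline was in the number of genes with peaks. The median midpoint lay 2892.5 nt from the end, and 1953 peaks (71.0%) lay at 3500 nt or less.

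The median log2 fold enrichment of the 6 steps was 3.77, 3.74, 3.79, 3.64, 3.74 and 3.78 from the 3′ side outwards. With each gene counted once through its own median, the values were between 3.57 and 3.62. Across the 2749 peaks, the rank correlation of log2 fold enrichment with distance was −0.028 (Spearman, a description over peaks that share genes and libraries). The step from 3500 to 4000 nt stood lowest, with 24.6% of its peaks at a log2 fold enrichment of 4 or more, against 33.3% to 39.3% in the other 5 steps. Peaks became shorter along the zone, with a median width of 70 nt in the first step and 62 nt in the last. The median −log10 p lay between 10.5 and 10.9 in the first 4 steps and was 11.8 and 12.5 in the last 2.

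**Figure D1:**
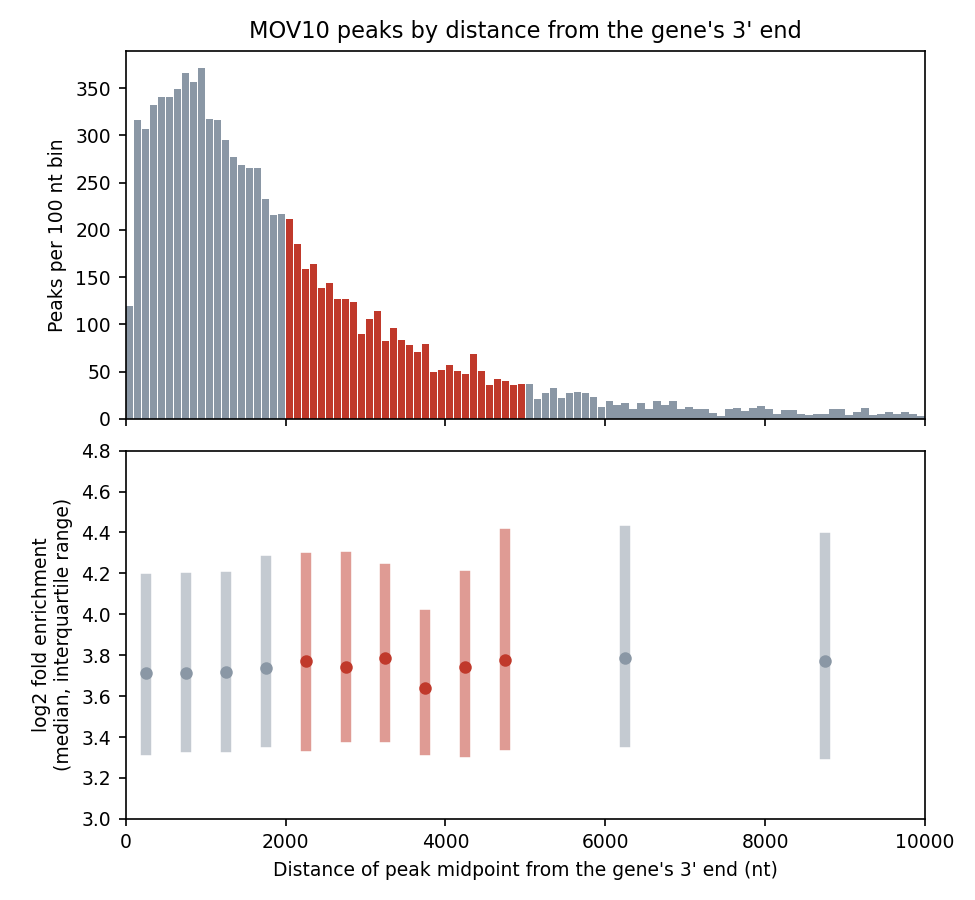
Upper panel, number of single-gene peaks in genes of at least 15 kb per 100 nt of distance between the peak midpoint and the gene's 3′ end, with the 2 to 5 kb zone in red and other distances in grey. Lower panel, median (points) and interquartile range (bars) of the deposited log2 fold enrichment in steps of 500 nt, and of 2500 nt beyond 5000 nt; the count declines through the zone while the medians stay between 3.64 and 3.79.

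The peaks nearest to the borders of the zone had log2 fold enrichments from 3.12 to 4.60. Just inside 2000 nt lay a peak of Rybp, a Polycomb-associated gene, at 2000.5 nt (log2 fold enrichment 3.25) and a peak of the kinase gene Map3k3 at 2003 nt (3.26). Just outside lay peaks of Fyttd1, an mRNA export adaptor gene (3.63), and of the aminopeptidase gene Metap2 (3.12), both at 1999.5 nt. At the far border, a peak of Bend4 lay inside at 4996.5 nt (3.36) and a peak of the RNA-binding protein gene Rbms3 at 4994 nt (4.60). Outside it were peaks of Usp31 at 5001 nt (4.56) and of the kinase gene Braf at 5004 nt (3.40). After touching peaks had been joined, 46 intervals ran across the border at 2000 nt and 6 across that at 5000 nt.

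Zone peaks as a whole were about as strong as the rest of the list. They had a median of 3.75 in log2 fold enrichment, or 13.5-fold, with the middle of the distribution (interquartile range) between 3.37 and 4.25, against a median of 3.71 over all listed peaks. A log2 fold enrichment of 4 or more was reached by 980 zone peaks (35.6%), and by 33.7% of all listed peaks. A value of 5 or more was reached by 214 zone peaks (7.78%), by 5.93% of all listed peaks, by 4.97% of the 5871 peaks in the last 2 kb, by 11.2% of the 644 peaks at 5 to 10 kb and by 8.26% of the 714 peaks farther out. Much of this upper tail came from few genes. The 10 genes with most zone peaks held 119 of the 214. Without those 10 genes the share at 5 or more was 3.94% in the zone and 4.16% over all listed peaks. It was 3.50% in the last 2 kb, 7.36% in the 5 to 10 kb stretch and 8.63% in the peaks farther out. The 10 genes were picked by their zone peaks, after the data had been seen. Their removal left 2411 of 2749 peaks in the zone, 5661 of 5871 in the last 2 kb and 11571 of 12236 in the list. A fall of the zone against the last 2 kb or the whole list is therefore partly built into this choice. The share at 4 or more without the 10 genes was 30.8% in the zone and 31.5% over all listed peaks.

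The highest −log10 p in the list, a ceiling of 400, was reached by 20 zone peaks (0.728%) and by 0.686% of all listed peaks. The 20 lay in 4 genes, 9 in Cbx5, 8 in Ttyh3, 2 in Elavl1 and 1 in Dpysl3, with log2 fold enrichments from 3.92 to 5.93. They were not the peaks of highest enrichment. The 20 zone peaks with the highest log2 fold enrichment, from 6.0 to 6.62, came from 7 genes and had a median −log10 p of 50.4 and a median width of 28 nt. Over all zone peaks, the rank correlation was 0.51 between log2 fold enrichment and −log10 p and −0.19 between log2 fold enrichment and width (Spearman, descriptions over 2749 peaks that share genes and libraries).

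Within single genes, the zone was compared with the last 2 kb and with the stretch beyond it, over different sets of genes. Peaks in both the zone and the last 2 kb were present in 436 genes. The zone median was the lower in 296 of them and the higher in 140 (32.1%), and the median difference (zone minus last 2 kb) was −0.16 in log2 (interquartile range −0.38 to 0.073). In 87 genes with peaks in the zone and at 5 to 10 kb, the zone median was the higher in 64 (73.6%), with a median difference of 0.23 (interquartile range −0.015 to 0.54). In 44 genes with peaks in the zone and more than 10 kb away, it was the higher in 32, with a median difference of 0.32. In the 69 genes with peaks in all of the last 2 kb, the zone and the 5 to 10 kb stretch, the medians of the gene medians were 3.95, 3.85 and 3.49, and 33 genes had their values in that order. In 18 of the 69 the zone was the highest of the 3.

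The difference from the last 2 kb was also present where each side held many peaks. In the 127 genes with at least 5 peaks on both sides, a choice made after the values had been seen, the zone was the higher in 38 (29.9%) and the median difference was −0.20. The largest differences in these genes went both ways. Cnot6, a deadenylase gene of the CCR4-NOT complex, had a median of 3.99 over 13 zone peaks and 4.78 over 9 peaks in the last 2 kb. The calcium sensor gene Ncs1 had 3.63 against 4.40, and Wasf2, an activator of actin branching, 3.47 against 4.21. In the opposite direction stood Tead1, whose protein binds DNA for the Hippo effector YAP, with 5.27 over 26 zone peaks and 4.41 over 21 peaks in the last 2 kb. S100pbp had 4.41 against 3.69 and the kinase gene Stk35 4.09 against 3.39. These 6 genes were named after their values had been seen.

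Width and −log10 p were less one-sided. The median width was the larger in the zone in 215 of the 436 genes and the smaller in 219. The median −log10 p was the higher in the zone in 192 and the lower in 244. Across genes, the median of the zone went with that of the last 2 kb of the same gene, with a rank correlation of 0.51 over 436 genes (Spearman, a description, since both values come from 1 transcript and the same libraries).

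**Figure D2:**
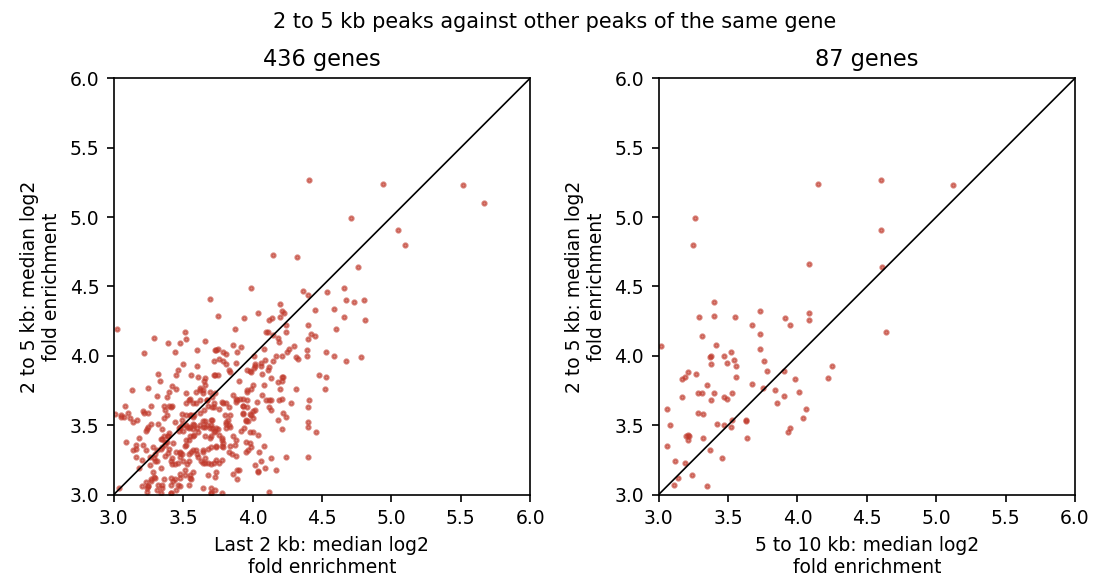
Each point is 1 gene, with the median log2 fold enrichment of its 2 to 5 kb peaks on the y axis and of its peaks in the last 2 kb (left, 436 genes) or at 5 to 10 kb (right, 87 genes) on the x axis; the line marks equal values. On the left 296 genes lie below the line, and on the right 64 genes lie above it.

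Most of the zone genes also had peaks outside the zone. Of the 536 genes, 436 also had peaks in the last 2 kb, and 346 had peaks in the last 2 kb and the zone alone. Peaks past 5 kb were present in 110 genes. In 80 genes all single-gene peaks lay in the zone, 172 peaks in all, and 43 of these genes had a single peak. The median of the strongest zone peak was 3.52 in the 80 genes and 3.94 in the other zone genes. The other genes had more zone peaks per gene, which alone raises the highest of them. In the 456 genes that also had peaks elsewhere, 2577 of 6436 peaks lay in the zone, and the strongest peak of the gene lay there in 136 genes (29.8%).

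Among genes with peaks in the zone alone, 19 had 3 or more. The strongest was Vkorc1l1, a paralog of the vitamin K epoxide reductase gene, with 9 peaks between 2152.5 and 3762 nt from the end. Its leading peak on chromosome 5 (129984471 to 129984505, GRCm38) reached 5.0. The actin- and phosphatase-binding protein gene Phactr2 reached 4.53 with 3 peaks. Eif4g2, which encodes the translation factor DAP5, had 13 peaks, the most of these named genes, all between 2951.5 and 4384 nt from the end, with a highest value of 4.20. The lysosome-associated gene Def8 reached 4.13 with 5 peaks, the acyltransferase gene Agpat3 4.08 with 6, and Ccny, a membrane-bound cyclin gene, 4.02 with 8. In the larger group of 261 zone genes with at least 10 peaks anywhere, 13 had at least 75% of them in the zone, among them Mib1, Ddr2, Cnot6l, Erc1, Plxna4, Foxp1 and Gnaq, which were named after their values had been seen.

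A minority of genes held most zone peaks. The median zone gene had 3 zone peaks, as in the last 2 kb, and 167 genes (31.2%) had 1, while 86 genes with 10 or more held 1415 peaks (51.5%). Of the zone peaks, 1473 (53.6%) touched another peak, against 54.5% in the last 2 kb and 54.1% over all listed peaks. Joining touching peaks left 1831 intervals with a median of 103 nt, of which 1313 were single peaks and 43 were at least 300 nt long. Between neighbouring intervals of a gene the median gap was 133 nt, and 546 of 1295 gaps (42.2%) were of 100 nt or less. The median gene had 9.40% of the 3000 nt of the zone covered by peaks, and 51 genes had at least 30%. In 33 genes peaks were present in all 6 steps of 500 nt, and in 240 genes in 1 step.

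Elavl1 had most zone peaks. Its protein, HuR, binds AU-rich elements and stabilises mRNAs. Of its 78 peaks on chromosome 8, 52 lay in the zone and 26 in the last 2 kb. The zone peaks ranged from 3.31 to 6.23 in log2 fold enrichment with a median of 5.10, against 5.67 in the last 2 kb, and 43 were at 4 or more. They covered 53.1% of the zone. A run of 16 touching peaks covered 507 nt (4287398 to 4287904), with values from 4.68 to 5.75.

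Mib1, the gene of a ubiquitin ligase that acts in Notch signalling, had the most densely covered zone. It held 46 of its 58 peaks there, and they covered 2198 of 3000 nt (73.3%). Their values ran from 3.21 to 6.28 with a median of 4.91. This was the widest range of any zone gene, 3.07 on the log2 scale. The 5 peaks of Mib1 in the last 2 kb had a median of 5.05. A run of 10 touching peaks on chromosome 18 (10814427 to 10814997) covered 571 nt. Mib1 also weighed on its chromosome. The share of peaks that lay in the zone was 45.7% on chromosome 18, the highest of any chromosome, and 38.3% there without Mib1, while the lowest was 17.2%, on chromosome 14.

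Tead1 held the strongest peak of the zone. Of its 68 peaks on chromosome 7, 26 lay in the zone, 21 in the last 2 kb and 19 at 5 to 10 kb. The leading peak, 4715.5 nt from the end, had a log2 fold enrichment of 6.62, a 98.3-fold enrichment, and the neighbouring peak at 112902014 to 112902054 had 6.52. Another high peak lay at 112901798 to 112901897 (6.34), 4936.5 nt from the end. All zone peaks of Tead1 were at 3.97 or more. The strongest peak at 5 to 10 kb reached 6.58, while that of the last 2 kb reached 5.07.

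Nova2, which encodes a neuronal splicing regulator, came second among genes by its strongest zone peak. Its 25 zone peaks had a median of 5.24, against 4.94 for 14 peaks in the last 2 kb and 4.15 for 6 peaks at 5 to 10 kb. Beside the peak at 4383.5 nt from the end (6.44), a second group of high peaks lay at 18962758 to 18962811 (6.15) and 18962685 to 18962703 (6.09) on chromosome 7. The leading Nova2 peak was 8 nt wide and had a −log10 p of 22.3.

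Cbx5, the gene of heterochromatin protein HP1α on chromosome 15, had 35 of its 110 peaks in the zone. All 35 were at 4.26 or more, with a median of 5.23, against 5.52 in the last 2 kb and 5.12 over 42 peaks at 5 to 10 kb. Its strongest zone peak, 6.17 at 103194693 to 103194711, stood in a run with peaks of 6.11, 6.08 and 6.12. Nucks1, a nuclear protein gene on chromosome 1, had 34 zone peaks between 3.05 and 6.0, with a median of 4.19 against 4.60 in the last 2 kb. Its strongest peak of all lay in the zone, 2026 nt from the end.

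The other 5 of the 10 genes with most zone peaks had lower medians or a shorter reach. Rc3h2, which encodes the RNA-binding ubiquitin ligase Roquin-2, and Slc38a1, a neutral amino acid transporter gene, had 33 each, with medians of 4.00 and 4.05. The collagen receptor gene Ddr2 had 27 with a median of 4.07, and Pank3, a coenzyme A synthesis gene, 26 with a median of 3.87. Ttyh3, a tweety family membrane protein gene, differed in position. Its 26 zone peaks ended 2903.5 nt from the gene end and stood in 2 of the 6 steps. Of these, 22 formed a single run of touching peaks, 680 nt long (chromosome 5, 140622581 to 140623260), the longest in the zone. The next longest runs were 616 nt in Erc1, a presynaptic scaffold gene with 15 of its 17 peaks in the zone, and those of Mib1 and Elavl1.

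**Figure D3:**
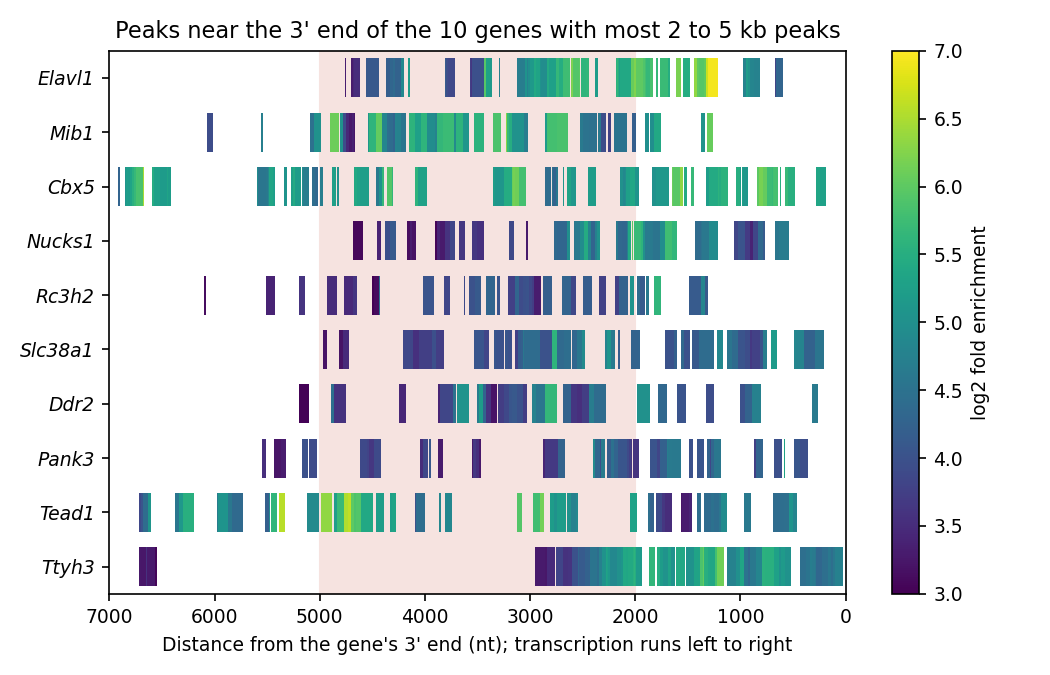
Peaks of the 10 genes with most 2 to 5 kb peaks, drawn to scale by distance from the gene's 3′ end (x axis in nt, ending at 7000 nt), with the zone shaded and colour giving the log2 fold enrichment. Elavl1 and Mib1 have peaks across most of the zone, while the peaks of Ttyh3 stop at 2903.5 nt within it.

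Genes with more zone peaks also had stronger ones. The rank correlation between the number of zone peaks and the highest log2 fold enrichment was 0.79 over 536 genes (Spearman, a description, in which a larger number of peaks alone raises the highest of them). Differences between gene means made up 51.6% of the summed squares of log2 fold enrichment in genes with 2 or more zone peaks. Part of such a share arises even where genes do not differ, because means over few peaks vary. The median range within a gene with 2 or more zone peaks was 0.87. A zone peak at 5 or more was present in 51 of the 536 genes. Of the 1421 genes of at least 15 kb with a single-gene peak, 9.71% had a peak at 5 or more anywhere. These counts are not alike, since the first takes zone peaks alone and the second takes any single-gene peak. A zone peak at 4 or more was present in 225 of the 536 genes. The share of the 1421 genes with a peak at 4 or more was not computed, so this count has no background.

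Outside the 10 genes with most zone peaks, Rims3 and Spock2 combined a high value with a number of zone peaks well above the median. Rims3, a presynaptic active-zone gene, had 15 zone peaks with a highest value of 5.70, 3674.5 nt from the end, against 5.19 in the last 2 kb. Spock2, a brain proteoglycan gene, had 14 with a highest value of 5.67, against 5.02 in the last 2 kb. Rims3 and Spock2 were named for a strong zone peak, so their higher value in the zone follows in part from that choice. High values were not limited to genes with many zone peaks. Arhgef12, named after its values had been seen, reached 5.36 at 3001.5 nt with fewer zone peaks than the median gene.

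**Figure D4:**
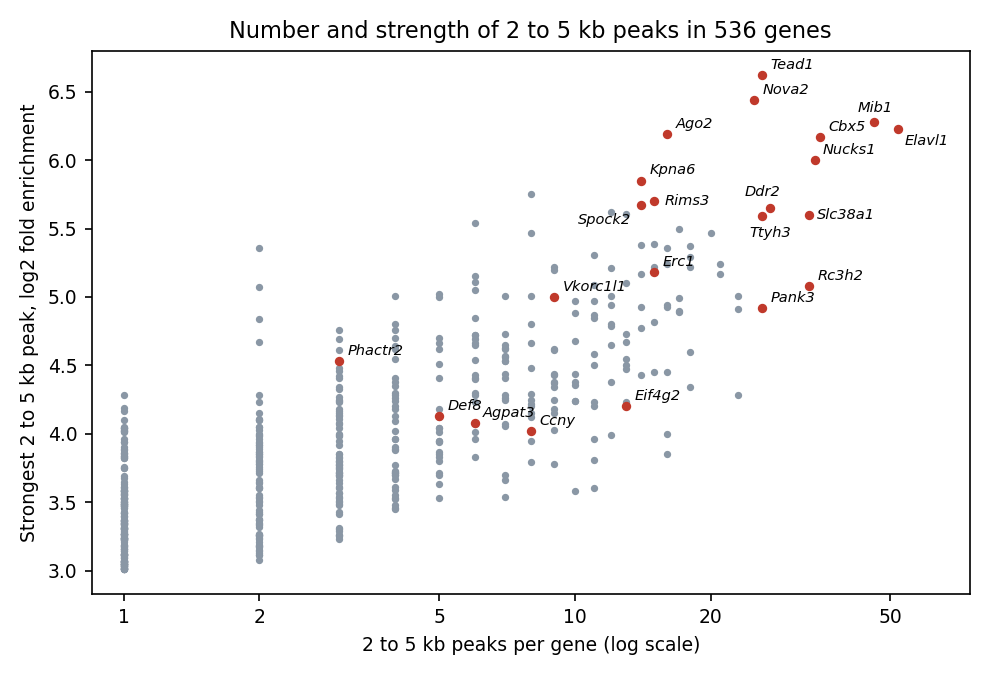
Number of 2 to 5 kb peaks per gene (x axis, log scale) against the log2 fold enrichment of the strongest of them (y axis) in 536 genes, with the genes named for most peaks, strongest peak, peaks in the zone alone or longest run in red. Tead1 and Nova2 are highest at 26 and 25 peaks, and Elavl1 lies farthest right at 52.

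Gene lists were compared by role, and 2 backgrounds are given. Of the 1421 genes of at least 15 kb with a single-gene peak, 37.7% had a zone peak, and of the 11784 annotated protein-coding genes of that size 4.55% did. The median of the strongest zone peak was 3.85 over the 536 zone genes. In the lists, genes with peaks are those of at least 15 kb with a single-gene peak. The list shares below are of such genes and stand beside the 37.7%, except where all annotated genes are named. The 14 lists were written with earlier results of these data known and include genes known to carry peaks. Shares or medians above the background are therefore not evidence about a list. A larger number of zone peaks alone also raises the strongest value of a gene.

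Of 31 genes of microRNA silencing and deadenylation, 10 of at least 15 kb had peaks and 6 of these (60.0%) had one in the zone, with a median strongest value of 4.93. Ago2, the Argonaute that cleaves its targets, had 16 zone peaks, all at 4.03 or more, with a median of 4.99 against 4.71 in the last 2 kb. Ago1 had 3, at 3.23, 3.45 and 4.76, with midpoints between 2813 and 2950 nt from the end. The deadenylase genes Cnot6l and Cnot6 differed in where the rest of their peaks lay. Cnot6l had 16 of 21 peaks in the zone and 2 in the last 2 kb, while Cnot6 had 13 of 25 in the zone and 9 in the last 2 kb. Both had a leading zone peak near 3 kb from the end, Cnot6l 5.24 at 3177 nt and Cnot6 5.10 at 2957.5 nt. Tnrc6b, a scaffold that links Argonaute to deadenylases, had 15 zone peaks up to 4.45, and the let-7 antagonist gene Lin28a had 2 up to 3.60. In 5 of the 6 genes the strongest peak of the gene lay in the zone.

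Lists of RNA decay and RNA binding followed. Of 7 genes with peaks among those of mRNA decay, P-bodies and Pumilio, 2 (28.6%) had zone peaks, the decapping enzyme gene Dcp2 with 11 of its 16 peaks (up to 4.20) and the helicase gene Ddx6 with 5 of 22 (up to 4.04). Of 8 genes with peaks among splicing and nuclear RNA-binding proteins, 5 (62.5%) had zone peaks. After Nova2 and Elavl1 these were Celf1 (9 zone peaks, up to 4.43), Ptbp3 (6, up to 4.23) and Rbfox2 (16, up to 4.00). Nova2 was the only one of the 5 with its strongest peak in the zone.

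Of 10 genes with peaks among translation initiation and poly(A)-binding genes, 6 had zone peaks. Eif4ebp2, which encodes an inhibitor of the cap-binding factor eIF4E, had 14 zone peaks and 0 in the last 2 kb. The 14 lay between 4122.5 and 4989.5 nt from the end, with a median of 4.66 and a highest value of 5.38. Larp1, a repressor of ribosomal protein mRNA translation, showed the reverse layout, with 4 of 35 peaks in the zone, at 4.10 to 4.62, and 31 in the last 2 kb. Eif4g2 had all its peaks in the zone. Larp4b (7 peaks, up to 3.70), Pabpc4 (1 at 3.43) and Eif4b (1 at 3.23) were weaker.

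The 3 neuronal lists differed in how many of their genes with peaks had one in the zone. The share was 7 of 10 (70.0%) for adhesion and axon guidance, 9 of 18 for cytoskeleton and neurite outgrowth and 1 of 9 (11.1%) for synapse and ion channels, the lowest of the 14 lists. The order of the first and second changed over all annotated list genes of at least 15 kb. There the shares were 17.1%, 28.1% and 2.38%. Of the 18 cytoskeletal genes, the 9 with zone peaks had a median strongest value of 4.07. Dpysl3, a collapsin response mediator gene, led with 21 zone peaks up to 5.17 and a median of 4.31, against 4.04 in the last 2 kb, while its paralog Dpysl2 had 3 up to 3.26. Map2, a dendritic microtubule protein gene, reached 4.85, and the kinesin genes Kif1b and Kif5c reached 4.68 and 4.29. The strongest peak lay outside the zone in 8 of the 9 genes. The 7 adhesion and guidance genes had a median strongest value of 3.41. The semaphorin receptor gene Plxna4 stood above the others, with 11 of 14 peaks in the zone and a highest value of 5.09. Tenm4 followed at 3.95, and the netrin receptor genes Unc5c and Unc5b reached 3.54 and 3.41.

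Among 22 chromatin regulator genes with peaks, 9 had zone peaks (40.9%, median strongest value 4.11). After Cbx5, the DNA methyltransferase gene Dnmt3a had 21 zone peaks that covered 52.8% of the zone, with a median of 4.31 against 4.23 in the last 2 kb. The methylcytosine dioxygenase gene Tet3 had 18, with a median of 3.71 against 3.31, and its paralog Tet1 had 1 at 4.28. The other 5 genes of the list had 1 to 3 zone peaks each, and the strongest of these was 4.11, in Kmt2a. Of 18 transcription factor genes with peaks, 12 had zone peaks (66.7%, median strongest value 3.95). After Tead1 came the homeobox gene Hmbox1 with 16 zone peaks, all at 3.75 or more and up to 5.36, the nuclear factor I gene Nfix (7, up to 4.73) and the forkhead gene Foxp1 (9 of 11 peaks, up to 4.38). Another nuclear factor I gene, Nfib, had 16 zone peaks that reached 3.85.

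Of 30 kinase, phosphatase and G protein genes with peaks, 15 had zone peaks (median strongest value 3.85). They held 94 zone peaks, fewer than the 103 in the 12 transcription factor genes. Of 5 cell cycle and survival genes with peaks, 2 had zone peaks. Gna13, the α13 subunit of a G protein, had 14 zone peaks up to 5.17, with a median of 4.12 against 4.40 in the last 2 kb. Gsk3b (11, up to 4.85) and Hipk1 (13, up to 4.73) had their strongest peaks elsewhere.

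In the ubiquitin system 9 of 19 genes with peaks had zone peaks (47.4%, median strongest value 3.94). After Mib1, the deubiquitinase gene Usp31 had 18 up to 5.22, the ubiquitin ligase gene Rnf165 had 3 up to 4.48 and Usp12 had 4 up to 3.96. Of 17 membrane trafficking and transport genes with peaks, 7 had zone peaks (41.2%, median strongest value 4.34). Slc38a1 and Ttyh3 reached 5.60 and 5.59, the small GTPase gene Arf3 5.05 with 6 peaks, all within 2328 nt of the end, and the chloride transporter gene Clcn5 4.34 with 9. Of 14 nuclear pore, transport and chaperone genes with peaks, 5 had zone peaks (35.7%, median strongest value 3.83). The importin gene Kpna6 led with 14 zone peaks up to 5.85, its strongest anywhere, and the next, Nup50, reached 4.00.

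**Figure D5:**
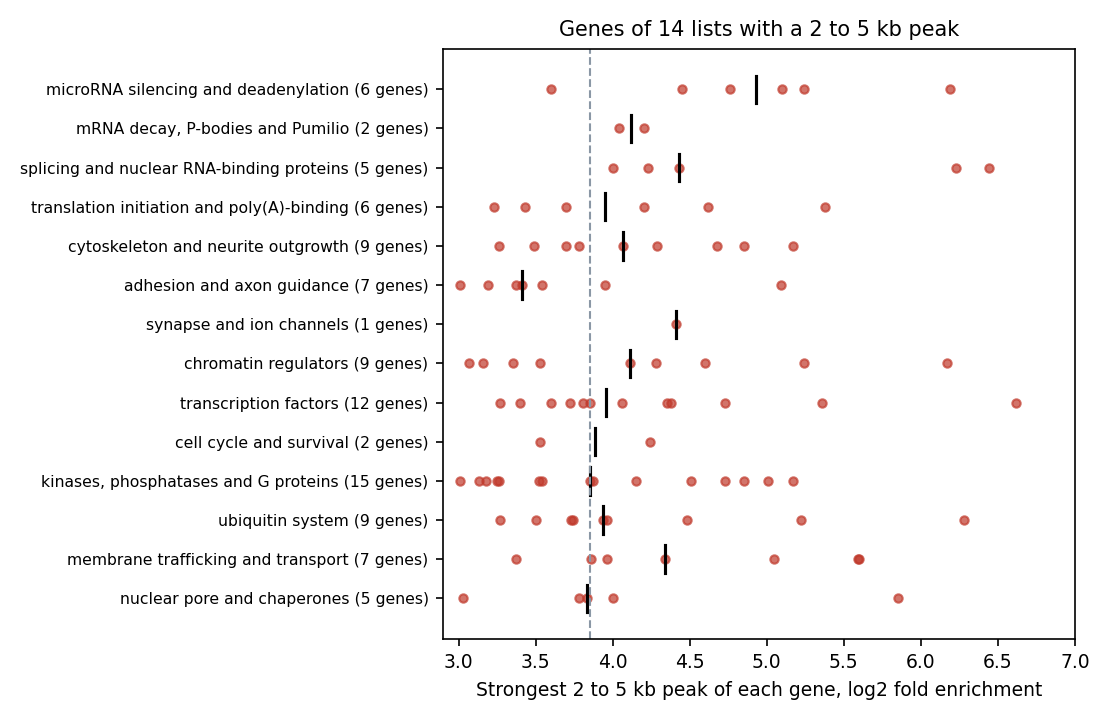
Log2 fold enrichment of the strongest 2 to 5 kb peak (x axis) of each gene with such a peak in 14 lists (rows, number of genes in brackets); points are genes, black bars list medians and the dashed line the median of all 536 genes, 3.85. The list medians lie between 3.41 for adhesion and axon guidance and 4.93 for microRNA silencing and deadenylation. The lists were written with earlier results known, so these medians are descriptions.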

How the data were processed

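MOV10 eCLIP was measured in 2 immunoprecipitates and 2 inputs of N2A cells. Per the labels' protocols the published eCLIP method was used without changes. The authors deposited 1 peak list without a header. Its columns were read from their values and from the order in published eCLIP files as the −log10 p and the log2 fold enrichment computed by the authors; a wrong reading would change statements on strength, not on position. Replicates were pooled in the list. Aligner, caller and cutoffs: not given in the sources used here. Builds mm10 and GRCm38.p6 come from the submitters' processing notes.

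Starts were converted to count from 1. Peak midpoints were placed in RefSeq GRCm38.p6 gene spans with Python 3.11.15 and pandas 2.3.3. Peaks with a midpoint in several genes were left out. Assignment was tested on simulated data. Nothing in the labels says whether replicates came from separate cultures. Peak sequences were not analysed here.

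The members and lists were chosen with earlier results of these data known. Named genes were the 10 with most zone peaks, the 10 with the strongest zone peak of at least median −log10 p, the 6 strongest with 3 or more peaks, all in the zone, the 4 with the longest run, up to 4 of each list and the 2 peaks nearest each side of a border; others are marked as chosen after their values were seen, apart from further members of the lists and paralogs named beside them. Alternatives were gene spans of at least 10000 or 30000 nt, whole peaks inside the zone, −log10 p of at least 5, touching peaks joined, coding spans alone and Elavl1 left out. Values of some genes of the lists are not reported here.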

Additional observations from a re-analysis of the deposited data

How the results depend on the processing

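No paired analysis was possible because the list pools the replicates, and for the same reason no replicate could be left out. Of 64 recomputed values of 8 results, 53 stayed within the exact 95% binomial interval of the value reported (for counts of genes, within 1.5 times), and 0 reversed. Most of the 8 results, such as a count or a median, have no direction that could reverse. The within-gene shares and the share of genes with the strongest peak in the zone stayed within these limits under every alternative run. The number of genes with a zone peak also did, between 440 and 556, but the limit of 1.5 times is wide. Leaving out Elavl1 or the 10 genes with most zone peaks could lower this number only by those genes. The zone held 28.7% of peaks with gene spans of at least 30000 nt, 28.5% at a −log10 p of 5 or more and 25.9% without the 10 genes with most zone peaks, a setting chosen after seeing the data. The share of touching zone peaks was 51.4%, 58.0% and 49.6% under the same settings. The median log2 fold enrichment was 3.82 at a −log10 p of 5 or more, 3.72 with touching peaks joined and 3.68 without the 10 genes, and the share at 4 or more was 39.2% at a −log10 p of 5 or more and 30.8% without the 10 genes. Intervals treat peaks as independent, which peaks of 1 gene are not. The read depth behind the peaks was unknown.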

Other observations

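Peaks whose midpoint lay in several overlapping gene spans were left out above. With protein-coding spans alone used for the assignment, 107 further peaks entered the zone and 20 further genes gained a zone peak. Among the genes with most of these added peaks were Cplx2, a complexin gene of synaptic vesicle release, with 18 up to a log2 fold enrichment of 5.35, Dcaf7, a cullin ligase adaptor gene, with 15 up to 5.59, and Eif5a2, a translation factor gene, with 10 up to 4.73. The zone genes had a median span of 65168 nt, against 48188 nt in the 885 other genes of at least 15 kb with a single-gene peak. Of the 536 zone genes, 441 stood in none of the 14 lists. These genes were named after their values had been seen.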
